A study of Mus musculus with 6 samples.

Results

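The genes described here are the matrix metalloproteases (MMPs), the ADAMTS proteases with the related ADAMTS-like proteins, and the tissue inhibitors of metalloproteases (TIMPs). They were taken by name from the protein-coding rows of the count table: symbols beginning with Mmp and a number, Timp1 to Timp4, and Adamts or Adamtsl with a number. This gave 51 of the 47967 genes in the table, made up of 23 MMP genes, 19 ADAMTS genes, 5 ADAMTS-like genes and 4 TIMP genes. RNA came from the gastrocnemius, a calf muscle, of C57BL/6 males that were 20 to 24 weeks old. For 12 weeks they had eaten chow with normal phosphate (0.6% inorganic, 0.9% in total) or with high phosphate (2.0% inorganic, 2.3% in total), 3 libraries each. Calcium (1.9%), magnesium (0.3%), sodium (0.9%) and potassium (1.8%) were the same in both diets. Whether each library is a separate mouse is not stated, so the p-values cover only the spread among these libraries, and that spread may be technical.

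MMPs are zinc-dependent proteases, secreted or held at the cell surface, that are made as inactive precursors and between them cut collagens, proteoglycans and other matrix proteins. ADAMTS proteases are secreted relatives with thrombospondin repeats, and include enzymes that trim procollagens and enzymes that cut proteoglycans such as versican and aggrecan. ADAMTS-like proteins share their non-catalytic domains but lack the protease domain, and TIMPs are small secreted proteins that block the active site of metalloproteases. In muscle these genes are known for matrix remodelling during growth, repair and fibrosis, and many of them are made by fibroblasts and immune cells of the interstitium rather than by muscle fibres.

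The question put to these genes was how their RNA differed between the diets. Most measured members were lower on the high phosphate diet. Levels are in CPM (counts scaled to the size of the library) after TMM normalization, which sets each library by a typical gene. Values of single libraries are listed in the order of replicates 1, 2 and 3, and pairs of values as mean ± SD (n = 3) give the normal diet first. The signed values that precede an adjusted p are log2 fold changes of high over normal phosphate, with their SE where one is given. A gene was called at a Benjamini-Hochberg adjusted p under 0.05 in edgeR's quasi-likelihood test over all 15347 genes tested. Of the 51 members, 40 passed the filter on low counts, 28 of these fell and 2 rose, whereas among all genes tested 26.3% were called lower and 23.0% higher (49.3% in either direction). In 30 members all high phosphate libraries lay below all normal phosphate libraries and in 2 they lay above, against 32.1% and 30.3% of all genes tested. The median log2 fold change of the 40 members was -1.10, against -0.016 over all genes tested. A gene that is low in both diets cannot pass the filter, and one that passes through its normal phosphate libraries alone is likely to be lower, so these counts describe the 40 and not all 51.

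The scaling of the libraries matters for the 2 members called higher and for several members not called, among them those near 0. With library size alone the median of all genes moved to -0.49 and that of the members to -1.57, and the fit called 34 members lower and 0 higher (51.4% and 5.72% of all genes). In that edgeR fit 1 member, Adamts1, was higher at an unadjusted p under 0.05, whereas DESeq2 on the counts called 30 members lower and 2 higher (19.7% and 19.5% of all genes) and limma-voom 25 members lower and 2 higher (25.8% and 22.9% of all genes). Limma on the deposited FPKM called 27 members lower and 0 higher (34.1% and 3.93% of all genes) as log2(FPKM + 0.1). As log2(FPKM + 1) it called 23 members lower and 0 higher (31.8% and 3.73% of all genes), and without a filter on low values 18 members lower and 0 higher (15.8% and 1.80% of all genes). In these FPKM fits 0 members were higher at an unadjusted p under 0.05. The fits did not hold the same members. There were 40 with library size alone and limma-voom, 48 with DESeq2 and 39 in both filtered FPKM fits. The unfiltered FPKM fit held 48, so some counts can include members outside the 40. Directions below are relative to a typical gene.

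**Figure D1:**
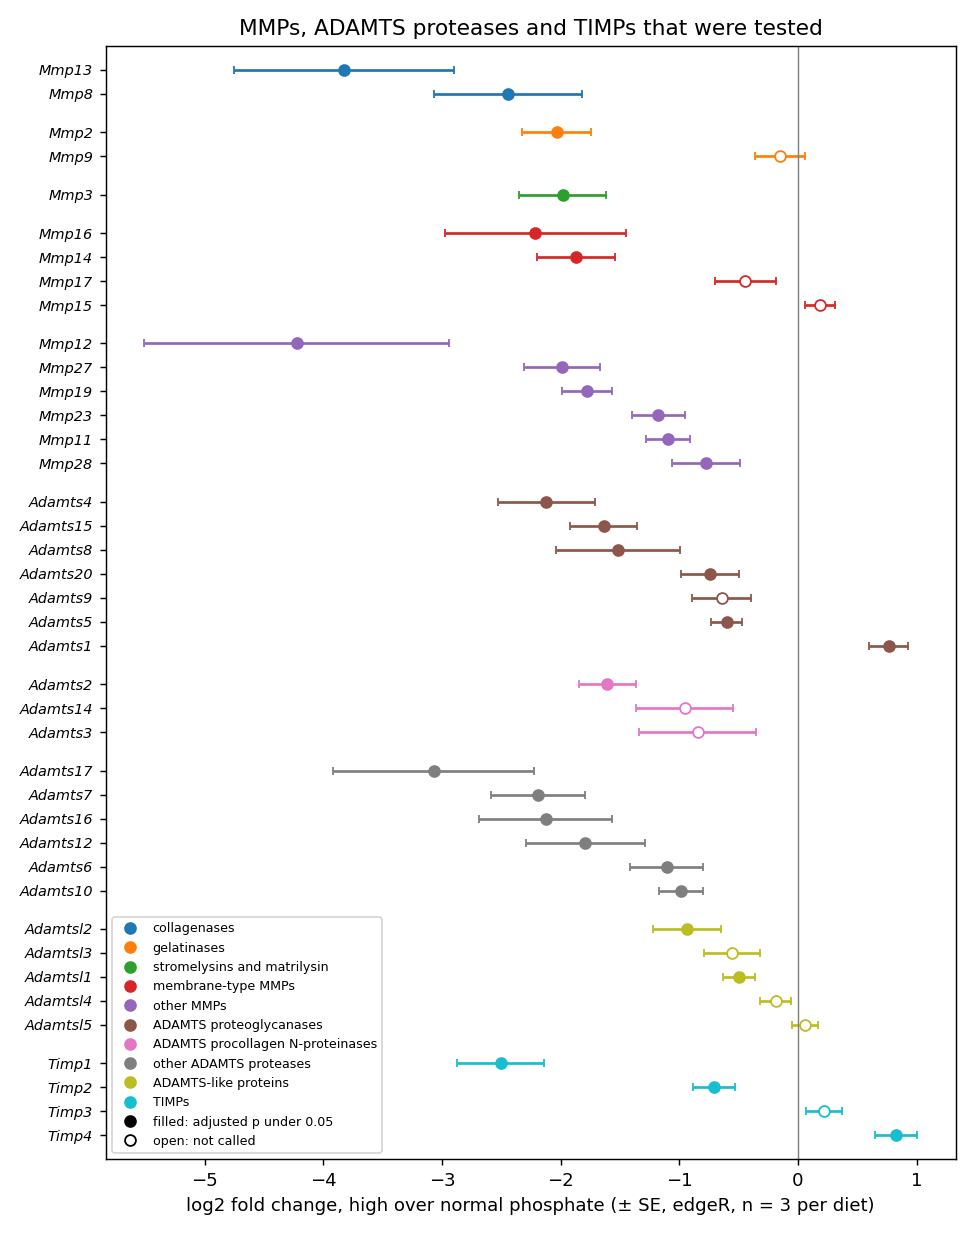
Log2 fold change of the 40 tested members, high over normal phosphate (points, ± SE, edgeR, 3 libraries per diet), coloured by role and filled where the adjusted p was under 0.05. Points run from -4.22 (Mmp12) to 0.83 (Timp4), with 28 filled points left of 0 and 2 right of it.

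Libraries held 21856006 to 27474251 gene counts. Normal phosphate replicate 2 stood apart for these genes: it was the highest of the normal phosphate libraries in 34 of the 40 members (85%), against 39.3% of all genes tested, and its median level over the mean of replicates 1 and 3 was 1.53-fold for the members and 0.995-fold for all genes. The fit without it called 23 members lower and 2 higher (22.2% and 19.6% of all genes), at a median of -0.97. Without normal phosphate replicate 1 it called 27 members lower and 2 higher (25.8% and 22.2% of all genes) and without replicate 3, 28 members lower and 2 higher (24.1% and 19.5% of all genes). Without high phosphate replicate 1 it called 21 members lower and 2 higher (21.1% and 17.4% of all genes), without replicate 2, 19 members lower and 2 higher (21.6% and 18.6% of all genes) and without replicate 3, 24 members lower and 2 higher (21.2% and 18.0% of all genes). These fits held 40 members without normal phosphate replicate 2 or 3 and 41 without any other library.

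Several marker lists of other cells had lower sums in high phosphate libraries, to be read against the 26.3% of all genes called lower. The summed level of 10 fibroblast markers was 4755 to 10790 CPM in normal and 2442 to 2677 CPM in high phosphate libraries, with 9 of 10 called lower, and its highest value was that of normal phosphate replicate 2. Macrophage markers summed to 467 to 912 CPM in normal and 231 to 335 CPM in high phosphate libraries (7 of 8 lower, while Cd163 was higher, a call that held with high phosphate replicate 3 left out and was lost without any other library, at an adjusted p of 0.0599 to 0.136) and endothelial markers to 891 to 1066 CPM in normal and 540.0 to 726 CPM in high phosphate libraries (7 of 8 lower). The endothelial count was 3 of 8 without high phosphate replicate 1 and 5 of 8 without replicate 3 (21.1% and 21.2% of all genes). It was 6 to 8 of 8 without any other library. White adipocyte markers summed to 2336 to 2971 CPM in normal and 552 to 951 CPM in high phosphate libraries (7 of 7 lower) and B cell markers to 9.61 to 65.2 CPM in normal and 1.01 to 1.83 CPM in high phosphate libraries (6 of 6 lower). Calls were near or under that share in the other lists. Pericyte and smooth muscle markers summed to 1322 to 1460 CPM in normal and 810.1 to 1125 CPM in high phosphate libraries (3 of 8 lower), tenocyte markers to 532 to 827 CPM in normal and 337 to 464 CPM in high phosphate libraries (2 of 6 lower) and Schwann cell markers, which overlapped between the diets, to 239 to 300.1 CPM in normal and 219.9 to 325 CPM in high phosphate libraries (1 of 6 lower). Muscle fibre markers summed to 58540 to 84800 CPM in normal and 158900 to 200800 CPM in high phosphate libraries (6 of 10 higher, 2 lower), and all 10 were detected. In bulk RNA fewer cells of a type and less RNA per cell cannot be told apart, and the part of these cells in the results below was not tested.

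**Figure D2:**
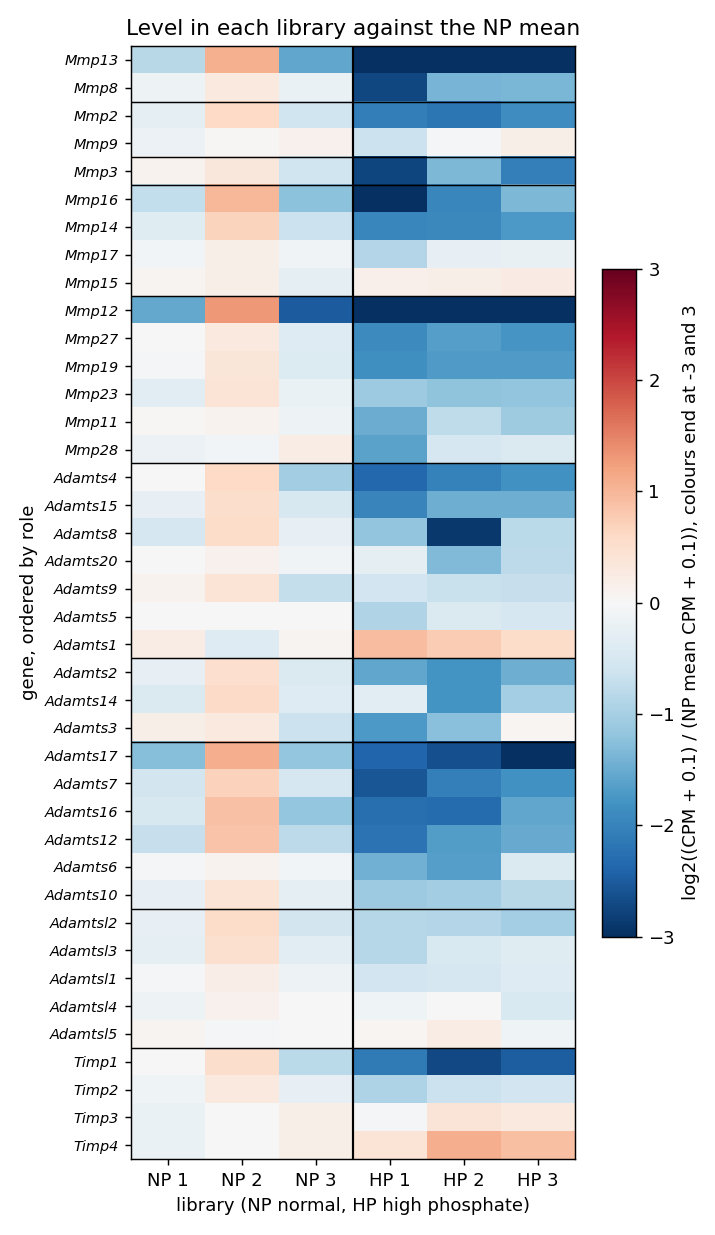
Level of each tested member in each library as log2((CPM + 0.1) / (normal phosphate mean CPM + 0.1)), genes ordered by role as in the plot of fold changes, with NP the normal and HP the high phosphate libraries. The HP columns are blue for most genes, the NP 2 column is the reddest of the NP columns, and Adamts1 and Timp4 are red in the HP columns.

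A block of 10 MMP genes lies side by side on mouse chromosome 9, between 7272514 and 7699585 (GRCm38, GENCODE M21), with 0 other protein-coding genes annotated among them. In order they are Mmp13, Mmp12, Mmp1b, Mmp3, Mmp1a, Mmp10, Mmp8, Mmp27, Mmp20 and Mmp7. Of these, 5 passed the filter (Mmp3, Mmp8, Mmp12, Mmp13 and Mmp27), and each was called lower, against 26.3% of all genes tested. For all but Mmp3, 0 high phosphate libraries reached the level the filter asks for, so those 4 passed through the normal phosphate libraries alone and their falling is no result about the block. The other 5 had highest counts of 2 (Mmp7), 1 (Mmp10) and 0 (Mmp1a, Mmp1b and Mmp20) in any library. Of the 13 MMP genes elsewhere in the genome, 10 were tested and 7 were called lower.

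Promoter windows of the tested genes of this block and of the barely detected Mmp10 are shown because a short sequence recurs in most, but not all, promoters of the block. The letters TGANTCA, the AP-1 binding motif, which reads the same on both strands, were searched in the 250 bases before each RefSeq transcript start (GRCm38.p6). They occurred in 6.75% of all 32851 windows, and windows were at hand for 36 of the 51 members. Of the 36, 8 genes had a match in at least 1 window, and all 8 lie in the chromosome 9 block, where the 2 without a match were Mmp8 and Mmp27. The TATA box letters TATAAA, searched on the gene's own strand, were in 7.59% of all windows and in those of 10 members, 7 of them in the block. The 150 bases before the start follow, 5′ to 3′ on the gene's strand, which is the plus strand for all of them, with the AP-1 letters in capitals. They lie at chr9:7445672-7445821 (Mmp3), chr9:7502192-7502341 (Mmp10), chr9:7347224-7347373 (Mmp12, the downstream of 2 starts), chr9:7272364-7272513 (Mmp13), chr9:7558279-7558428 (Mmp8) and chr9:7571246-7571395 (Mmp27).
Mmp3: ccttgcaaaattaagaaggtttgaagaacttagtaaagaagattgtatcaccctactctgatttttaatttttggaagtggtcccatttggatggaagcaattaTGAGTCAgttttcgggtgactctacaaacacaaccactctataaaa
Mmp10: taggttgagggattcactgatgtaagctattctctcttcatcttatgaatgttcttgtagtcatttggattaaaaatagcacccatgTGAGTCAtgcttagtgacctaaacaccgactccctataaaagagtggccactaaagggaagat
Mmp12: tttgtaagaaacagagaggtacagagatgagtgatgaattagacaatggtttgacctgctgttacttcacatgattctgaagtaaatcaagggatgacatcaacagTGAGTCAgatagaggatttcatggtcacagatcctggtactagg
Mmp13: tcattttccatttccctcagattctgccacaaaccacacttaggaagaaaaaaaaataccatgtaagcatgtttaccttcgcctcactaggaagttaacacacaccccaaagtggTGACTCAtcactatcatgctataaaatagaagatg
Mmp8: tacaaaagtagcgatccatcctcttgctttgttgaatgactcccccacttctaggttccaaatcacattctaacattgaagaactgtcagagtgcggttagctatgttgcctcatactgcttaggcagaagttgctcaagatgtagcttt
Mmp27: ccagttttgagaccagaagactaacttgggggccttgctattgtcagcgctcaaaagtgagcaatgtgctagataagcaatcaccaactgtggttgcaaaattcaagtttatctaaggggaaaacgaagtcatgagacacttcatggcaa
The match began 46 bases before the start in Mmp3, 63 in Mmp10, 44 in Mmp12 and 35 in Mmp13. Mmp1a, Mmp1b, Mmp7 and Mmp20 also had a match, in windows not printed here. Whether the letters have a part in the levels of these genes was not tested. A match is a run of letters and not a measured binding site.

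Collagenases cut the triple helix of fibrillar collagens, and in the mouse Mmp13 and Mmp8 are the main ones. Both passed the filter through the normal phosphate libraries alone, so their calls are no result about the collagenases. Mmp13 was at 1.03, 4.18 and 0.586 CPM in the normal and 0.0916, 0.153 and 0.156 CPM in the high phosphate libraries. All high phosphate libraries were under the lowest normal phosphate library, and replicate 2 of the normal diet was several times above the rest of its group. Mmp13 fell (-3.83 ± 0.93, adjusted p = 0.0111), and without normal phosphate replicate 2 the log2 fold change was -2.57, adjusted p = 0.00430. Its call was lost in edgeR with no filter on low counts or limma on log2(FPKM + 1) with or without a filter (adjusted p = 0.0679 to 0.190). Mmp8, the neutrophil collagenase, was close to the limit of detection, with 46 counts over the normal and 6 over the high phosphate libraries. It stood at 0.498, 0.709 and 0.476 CPM in the normal and 0, 0.153 and 0.156 CPM in the high phosphate libraries, with no overlap, and fell (-2.44 ± 0.62, adjusted p = 0.0107). Neutrophil markers were scarce throughout, at a summed 4.28 to 6.58 CPM in normal and 2.28 to 4.53 CPM in high phosphate libraries, and Ly6g had 0 counts in every library. The sums overlapped between the diets. Of 8 listed markers 3 were tested and 1, Retnlg, was called lower, while S100a8 and S100a9 were not called (26.3% of all genes lower).

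Gelatinases cut denatured collagen and basement membrane collagen, and of the 2, Mmp2 was called and Mmp9 was not. Mmp2, made by fibroblasts, was the most abundant MMP per length in the deposited FPKM values, at 104 ± 56.3 FPKM in normal and 18.4 ± 2.47 FPKM in high phosphate libraries. Its CPM values were 292, 526 and 231 CPM in the normal and 82.4, 77.5 and 96.3 CPM in the high phosphate libraries. The lowest normal phosphate library was above the highest high phosphate library, and Mmp2 fell (-2.03 ± 0.29, adjusted p = 0.00119), with a log2 fold change of -1.62, adjusted p = 0.000151 without normal phosphate replicate 2. Mmp9, made mainly by leukocytes, was at 6.44, 7.44 and 8.05 CPM in the normal and 4.67, 6.98 and 8.20 CPM in the high phosphate libraries. The diets overlapped, the gene was not called (-0.15 ± 0.21, adjusted p = 0.583), and leaving out high phosphate replicate 1 gave a positive value (0.066, adjusted p = 0.782). The difference between the responses of Mmp2 and Mmp9 was itself not tested.

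Mmp3 (stromelysin), which cuts proteoglycans and activates other MMPs, was at 11.6, 13.7 and 7.10 CPM in the normal and 1.51, 4.18 and 2.54 CPM in the high phosphate libraries. All high phosphate values were below all normal phosphate values, and it fell (-1.98 ± 0.37, adjusted p = 0.00336), although 8.39% of the 50-base stretches of its transcripts also occur in those of Mmp10, its neighbour, or of Gm15244. The library values of Mmp3, Mmp8, Mmp12 and Mmp13 are given in addition to those the naming rule asked for, and were chosen after their values were seen.

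Membrane-type MMPs sit at the cell surface. Mmp14, which activates the Mmp2 precursor and cuts collagen, was at 74.0, 152 and 61.4 CPM in the normal and 24.7, 24.9 and 28.8 CPM in the high phosphate libraries. The high phosphate libraries lay in a narrow band under all normal phosphate libraries, and Mmp14 fell (-1.87 ± 0.33, adjusted p = 0.00369), also without normal phosphate replicate 2 (-1.37, adjusted p = 0.000152). Mmp16, a relative of Mmp14, fell from 1.86 ± 1.68 to 0.407 ± 0.269 CPM (-2.21 ± 0.76, adjusted p = 0.0423), but it was not called without normal phosphate replicate 2 or high phosphate replicate 1, 2 or 3 (-2.77 to -1.17, adjusted p = 0.0514 to 0.116). Nor was it called by edgeR with no filter on low counts, limma-voom or limma in all 3 FPKM fits (adjusted p = 0.0746 to 0.433). Mmp15, another transmembrane enzyme, was at 34.6 ± 5.43 and 39.4 ± 1.25 CPM, without a call (0.19 ± 0.12, adjusted p = 0.238), but its value was -0.29 by library size alone and -0.21 in log2(FPKM + 1). Mmp17, anchored by a lipid, was at 2.37 ± 0.279 and 1.75 ± 0.444 CPM, without a call either (-0.44 ± 0.26, adjusted p = 0.177), while it was called lower with library size alone (-0.92). Mmp24 and Mmp25 had at most 3 and 22 counts in any library and were not tested. For Mmp24 the authors' FPKM values stood at 3.10 ± 0.171 and 2.83 ± 0.0378 FPKM although the counts were 3, 0, 2 in normal phosphate libraries and 0 in every high phosphate library, so its level is uncertain.

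All 6 tested members among the remaining MMPs were called lower, against 26.3% of all genes. Among them Mmp12 and Mmp27 passed the filter through the normal phosphate libraries alone, so their calls are no result about the group. Mmp19, expressed in stromal and vascular cells, had the smallest adjusted p of all members, at 10.6, 14.0 and 8.20 CPM in the normal and 2.98, 3.31 and 3.27 CPM in the high phosphate libraries (-1.78 ± 0.21, adjusted p = 0.000549). The high phosphate libraries were nearly equal to each other and all below the normal ones. Of the exonic bases of Mmp19, 28.3% are also annotated to Gm47093 or Tmem198b on the opposite strand, and with the strand setting of the counting not given in the sources used here, reads of these genes cannot be told apart. Mmp27, in the chromosome 9 block, was at 1.65, 2.06 and 1.25 CPM in the normal and 0.367, 0.459 and 0.415 CPM in the high phosphate libraries, with no overlap (-1.99 ± 0.32, adjusted p = 0.00146). Mmp11 (stromelysin 3), a fibroblast gene activated inside the cell by furin, was at 12.6, 13.2 and 11.1 CPM in the normal and 4.35, 7.18 and 5.82 CPM in the high phosphate libraries. It fell (-1.09 ± 0.19, adjusted p = 0.00183), and its normal phosphate values lay close together. Mmp23, whose precursor is held in the membrane, was at 5.79, 9.78 and 6.30 CPM in the normal and 3.39, 3.11 and 3.17 CPM in the high phosphate libraries and fell (-1.18 ± 0.23, adjusted p = 0.00302).

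Mmp12, the macrophage elastase, showed the most negative fold change of all members and also the widest spread. It was at 1.88, 14.1 and 0.915 CPM in the normal and 0.275, 0.306 and 0.311 CPM in the high phosphate libraries. The highest library was normal phosphate replicate 2, and the high phosphate libraries were all below the lowest normal one. The log2 fold change was -4.22 ± 1.28, adjusted p = 0.0355, and -2.21, adjusted p = 0.00406 without normal phosphate replicate 2, so that library alone moved it by over 1.5 times. Mmp12 was not called without high phosphate replicate 1, 2 or 3 (-4.24 to -4.15, adjusted p = 0.0972 to 0.102), nor by edgeR with no filter on low counts, limma-voom or limma in all 3 FPKM fits (adjusted p = 0.103 to 0.332). The macrophage markers had their highest sum, 912 CPM, in the same library. So did the fibroblast, endothelial, pericyte and smooth muscle, tenocyte and B cell markers, whereas the muscle fibre sum was lowest there. White adipocyte and neutrophil markers had their lowest sum of the normal phosphate libraries in it. A link between Mmp12 and macrophages in that library was not tested. Mmp28 (epilysin) fell from 8.16 ± 1.25 to 4.78 ± 1.88 CPM (-0.78 ± 0.29, adjusted p = 0.0487), a call lost without normal phosphate replicate 1, 2 or 3 or high phosphate replicate 1 or 2 (-0.92 to -0.46, adjusted p = 0.0559 to 0.127) and in edgeR with size factors in the style of DESeq2 (adjusted p = 0.0518), and 12% of its exonic bases are also annotated to 1700020L24Rik on the opposite strand. Mmp21 had at most 1 count in any library.

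**Figure D3:**
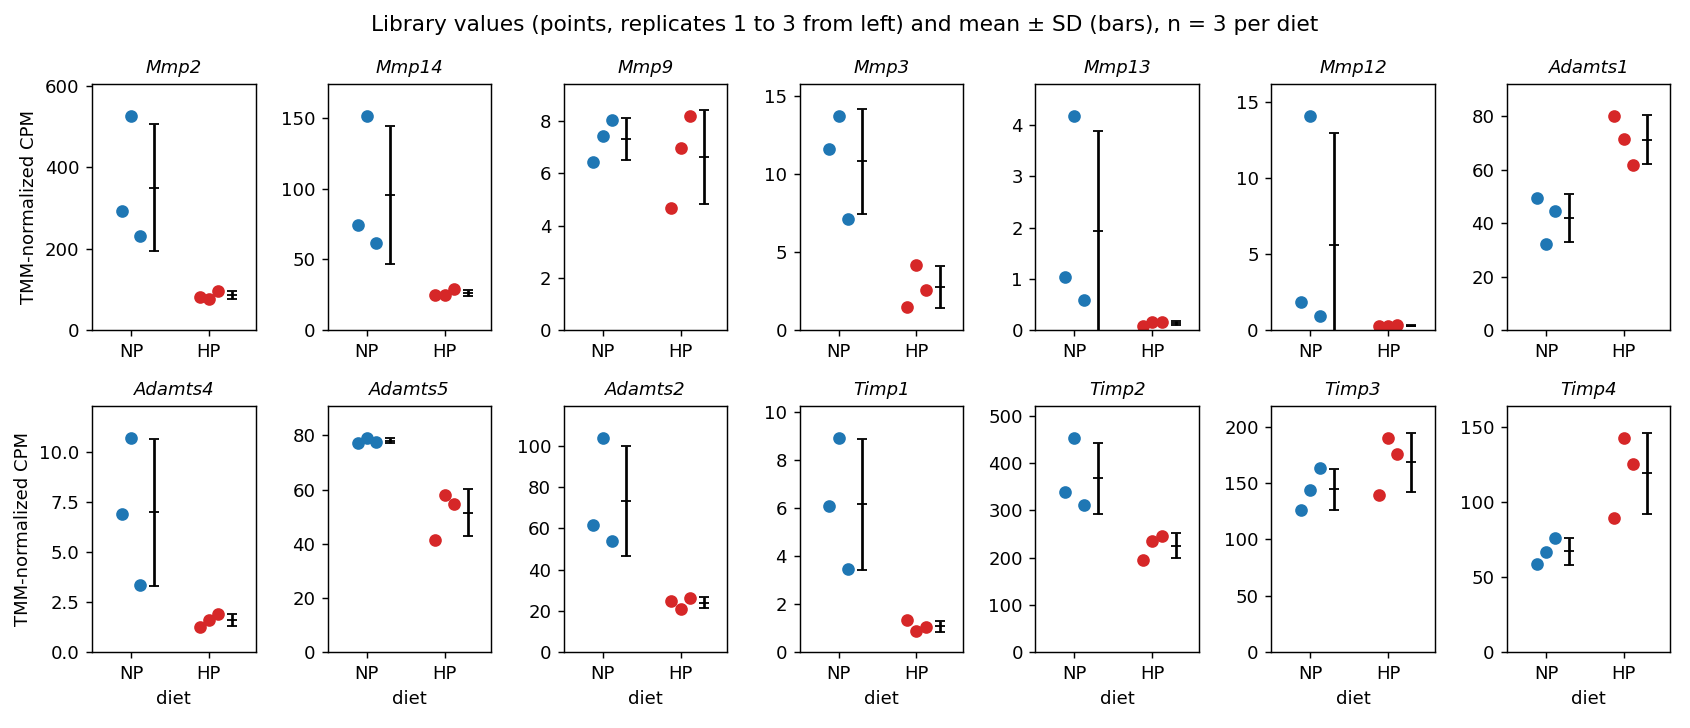
TMM-normalized CPM of 14 members in each library (points, replicates 1 to 3 from left to right, NP normal and HP high phosphate) with mean ± SD (bars, ended at 0 for Mmp13 and Mmp12), n = 3 per diet. Mmp2, Mmp14, Adamts2, Adamts4, Adamts5, Timp1 and Timp2 do not overlap between the diets and are lower on the high phosphate diet, Adamts1 and Timp4 do not overlap and are higher, and Mmp9 and Timp3 overlap.

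Of the 7 proteoglycan-cutting ADAMTS genes 5 were called lower and 1 higher, against 26.3% and 23.0% of all genes tested. Adamts1, which cuts versican and aggrecan, was at 49.4, 32.1 and 44.4 CPM in the normal and 80.2, 71.7 and 61.9 CPM in the high phosphate libraries. All high phosphate libraries exceeded all normal ones and Adamts1 rose (0.76 ± 0.16, adjusted p = 0.00511), but with library size alone (0.30, adjusted p = 0.0738) and with limma on log2(FPKM + 1) (0.30, adjusted p = 0.117) it was higher without a call. Its neighbour on chromosome 16, Adamts5, an aggrecanase made by fibroblasts, was at 77.3, 79.1 and 77.5 CPM in the normal and 41.5, 58.0 and 54.8 CPM in the high phosphate libraries. Adamts5 fell (-0.60 ± 0.13, adjusted p = 0.00518), with normal phosphate libraries that lay close together and no overlap. Adamts1 (chr16:85793827-85803113) and Adamts5 (chr16:85856173-85901828) are transcribed from the same strand. Adamts4, an inducible aggrecanase, was at 6.90, 10.7 and 3.37 CPM in the normal and 1.28, 1.63 and 1.92 CPM in the high phosphate libraries, and it fell without overlap (-2.12 ± 0.41, adjusted p = 0.00386), with no call in limma on unfiltered log2(FPKM + 1) (adjusted p = 0.0793).

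Adamts15, which cuts versican and aggrecan and is found in developing muscle, was at 15.7, 27.1 and 13.4 CPM in the normal and 4.67, 6.73 and 6.75 CPM in the high phosphate libraries. It fell, with every high phosphate library below every normal one (-1.64 ± 0.28, adjusted p = 0.00246). Adamts8 fell from 1.79 ± 0.759 to 0.624 ± 0.427 CPM (-1.52 ± 0.52, adjusted p = 0.0391), a call lost without normal phosphate replicate 2 or 3 or high phosphate replicate 1 or 2 (-1.64 to -1.05, adjusted p = 0.0521 to 0.121) and in edgeR with the replicate number as a block or limma on log2(FPKM + 1) with or without a filter (adjusted p = 0.0624 to 0.103). Adamts20 fell from 7.66 ± 0.655 to 4.57 ± 1.64 CPM (-0.74 ± 0.24, adjusted p = 0.0301), and was not called without normal phosphate replicate 1 or 2 or high phosphate replicate 2 or 3 (-0.75 to -0.50, adjusted p = 0.0588 to 0.0906). Adamts9, another versican-cutting enzyme, was at 26.1 ± 9.38 and 16.7 ± 0.706 CPM, without a call (-0.64 ± 0.25, adjusted p = 0.0591). It was called lower without normal phosphate replicate 3 (-0.91, adjusted p = 0.00123), and in edgeR with library size alone, edgeR with the replicate number as a block, DESeq2 or limma in both filtered FPKM fits (adjusted p = 0.00735 to 0.0445).

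Procollagen N-proteinases remove the amino-terminal propeptide of fibrillar collagens. Adamts2, the main enzyme of this kind, was at 61.8, 104 and 53.9 CPM in the normal and 24.7, 20.9 and 26.4 CPM in the high phosphate libraries. It fell without overlap (-1.61 ± 0.24, adjusted p = 0.00153; -1.27, adjusted p = 0.000230 without normal phosphate replicate 2). Its relatives Adamts14, at 4.50 ± 1.93 and 2.31 ± 1.16 CPM (-0.95 ± 0.41, adjusted p = 0.0809), and Adamts3, at 1.59 ± 0.530 and 0.895 ± 0.671 CPM (-0.84 ± 0.49, adjusted p = 0.181), overlapped between the diets and were not called, although both had negative fold changes. Adamts14 was called without high phosphate replicate 1 (-1.39, adjusted p = 0.0318) and with library size alone (-1.48, adjusted p = 0.0166), and Adamts3 without high phosphate replicate 3 (-1.62, adjusted p = 0.0220). Their substrates Col1a1 and Col3a1 fell in the same libraries (-2.51 ± 0.62, adjusted p = 0.0151 and -2.75 ± 0.49, adjusted p = 0.00306). Without normal phosphate replicate 2 their log2 fold changes were smaller in size, at -1.51, adjusted p = 0.00206 and -1.99, adjusted p = 0.000452.

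All 6 tested members of the other ADAMTS proteases were called lower, against the same 26.3% of all genes. Among them Adamts17 passed the filter through the normal phosphate libraries alone, so its call is no result about the group. Adamts10, which acts on fibrillin microfibrils, was the most abundant of the ADAMTS proteases per length on the normal diet, at 9.43 ± 3.97 FPKM, closely followed by Adamts2 at 9.30 ± 4.41 FPKM, with a spread larger than the gap between them. Adamts10 was at 34.9, 54.8 and 34.5 CPM in the normal and 19.4, 20.2 and 23.2 CPM in the high phosphate libraries and fell without overlap (-0.98 ± 0.19, adjusted p = 0.00306), with no call in limma on unfiltered log2(FPKM + 1) (adjusted p = 0.0506). Adamts7, which cuts the cartilage oligomeric matrix protein COMP, was at 4.56, 10.8 and 4.65 CPM in the normal and 1.05, 1.53 and 1.82 CPM in the high phosphate libraries. It fell as well (-2.19 ± 0.40, adjusted p = 0.00263), and Comp fell in the same libraries (-1.40 ± 0.34, adjusted p = 0.0128), with no call without high phosphate replicate 1 (-1.34, adjusted p = 0.0502).

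The other 4 of this group rested more on single libraries. Adamts12, a relative of Adamts7, fell from 21.7 ± 15.1 CPM to a mean of 6.29 CPM (-1.79 ± 0.50, adjusted p = 0.0252), with -1.05, adjusted p = 0.00338 without normal phosphate replicate 2 and no call without high phosphate replicate 1, 2 or 3 (-1.92 to -1.59, adjusted p = 0.0648 to 0.0827) or in edgeR with no filter on low counts or limma on unfiltered log2(FPKM + 1) (adjusted p = 0.0775 to 0.114). Adamts6, which acts on fibrillin, fell from 4.51 ± 0.328 to 2.10 ± 1.06 CPM (-1.11 ± 0.31, adjusted p = 0.0160), with no call without high phosphate replicate 1 or 2 (-0.93 to -0.87, adjusted p = 0.0554 to 0.0649). Adamts16 fell from 3.70 ± 2.77 to 0.848 ± 0.300 CPM (-2.13 ± 0.56, adjusted p = 0.0148), with -1.33, adjusted p = 0.0175 without normal phosphate replicate 2 and no call without high phosphate replicate 1 or 2 (-1.98 to -1.97, adjusted p = 0.0544 to 0.0548) or in edgeR with no filter on low counts or limma in all 3 FPKM fits (adjusted p = 0.0726 to 0.235). Adamts17 fell from 2.10 ± 2.17 to 0.244 ± 0.0830 CPM (-3.07 ± 0.85, adjusted p = 0.0187), with -1.75, adjusted p = 0.00973 without normal phosphate replicate 2 and no call without high phosphate replicate 2 or 3 (-3.08 to -2.83, adjusted p = 0.0565 to 0.0641) or in edgeR with no filter on low counts, limma-voom or limma on unfiltered log2(FPKM + 1) (adjusted p = 0.0509 to 0.256). Adamts13, the von Willebrand factor protease, Adamts18 and Adamts19 had at most 3, 16 and 17 counts in any library and were not tested.

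ADAMTS-like proteins bind matrix and microfibrils without cutting them. Their median log2 fold change was -0.49 over 5 genes, of which 2 were called lower, a share not far from the 26.3% of all genes. Adamtsl1 fell from 13.5 ± 1.70 to 9.61 ± 0.615 CPM (-0.49 ± 0.13, adjusted p = 0.0138), with no call without high phosphate replicate 1 (-0.44, adjusted p = 0.0523). Adamtsl2, a partner of fibrillin, fell from 6.07 ± 2.56 to 3.17 ± 0.186 CPM (-0.93 ± 0.28, adjusted p = 0.0226), with no call without normal phosphate replicate 2 or high phosphate replicate 1, 2 or 3 (-0.95 to -0.54, adjusted p = 0.0534 to 0.0748) or in limma on log2(FPKM + 1) with or without a filter (adjusted p = 0.0590 to 0.0991). Adamtsl3 was at 16.6 ± 5.69 and 11.3 ± 1.97 CPM, without a call (-0.55 ± 0.24, adjusted p = 0.0830) although its diets did not overlap. It was called without normal phosphate replicate 3 (-0.70, adjusted p = 0.0461) and with the replicate number as a block (-0.52, adjusted p = 0.0445). Adamtsl4, which binds fibrillin microfibrils, was at 34.9 ± 3.27 and 30.7 ± 4.62 CPM (-0.19 ± 0.13, adjusted p = 0.263), and Adamtsl5, which had the highest FPKM of the ADAMTS-like genes, at 39.4 ± 1.94 and 41.0 ± 5.04 CPM (0.06 ± 0.11, adjusted p = 0.676), both overlapping between the diets. Adamtsl4 was called lower in both filtered FPKM fits (-0.52, adjusted p = 0.0461 on log2(FPKM + 1)). With library size alone Adamtsl3, Adamtsl4 and Adamtsl5 were called lower (-1.04, -0.67 and -0.41), which turned the sign of Adamtsl5.

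The TIMPs went in different directions. Timp1, an inducible inhibitor of many MMPs, was at 6.09, 8.93 and 3.48 CPM in the normal and 1.33, 0.866 and 1.04 CPM in the high phosphate libraries. The high phosphate libraries lay in a narrow range below all normal ones, and Timp1 fell (-2.50 ± 0.37, adjusted p = 0.00111; -2.14, adjusted p = 0.00112 without normal phosphate replicate 2). Timp2, which inhibits MMPs and also takes part with Mmp14 in activating Mmp2, was the most abundant TIMP per length on the normal diet, at 91.7 ± 25.5 FPKM. It was at 339, 453 and 312 CPM in the normal and 195, 235 and 246 CPM in the high phosphate libraries, without overlap, and fell (-0.71 ± 0.18, adjusted p = 0.0101).

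Timp3, which binds the matrix and inhibits ADAMTS aggrecanases as well as MMPs, was at 126, 144 and 163 CPM in the normal and 139, 190.0 and 176 CPM in the high phosphate libraries. The diets overlapped and Timp3 was not called (0.22 ± 0.15, adjusted p = 0.256), but its value was -0.25 by library size alone and -0.20 in log2(FPKM + 1). Timp3 lies inside Syn3 on the opposite strand, and 21.3% of its exonic bases are also annotated to Syn3. Timp4, the inhibitor best known from heart and skeletal muscle, was at 58.7, 67.0 and 76.3 CPM in the normal and 89.7, 143 and 126 CPM in the high phosphate libraries. It was higher in every high phosphate library than in any normal one and rose (0.83 ± 0.18, adjusted p = 0.00481). Under library size alone (0.36, adjusted p = 0.163) and with limma on log2(FPKM + 1) (0.33, adjusted p = 0.268) Timp4 was higher without a call, and of its exonic bases 1.53% overlap Syn2 on the opposite strand.

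In the deposited FPKM values, whose scale differs from that of the counts, Timp2 made up 56.1 ± 2.91% of the summed TIMP level in normal and 40.4 ± 3.66% in high phosphate libraries. On the high phosphate diet Timp3, at 46.4 ± 9.68 FPKM, and Timp2, at 41.4 ± 6.58 FPKM, differed by less than their spread. The summed MMP level was 147, 303 and 116 FPKM in the normal and 36.4, 40.9 and 46.7 FPKM in the high phosphate libraries. By diet, summed ADAMTS FPKM went from 51.6 ± 17.4 to 22.9 ± 1.84, summed ADAMTS-like FPKM from 23.1 ± 3.32 to 15.3 ± 0.701 and summed TIMP FPKM from 163 ± 39.3 to 103 ± 18.3 (normal to high phosphate, SD, n = 3). Mmp2 supplied 55.1 ± 1.62% of the MMP sum in normal and 44.7 ± 2.62% in high phosphate libraries. These sums and shares are descriptions of the libraries.

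Ratios of counts within a library do not depend on how libraries are scaled, and 4 protease to inhibitor pairs were compared in this way. The log2 ratio of Mmp2 to Timp2 was -0.22, 0.21 and -0.43 in the normal and -1.24, -1.60 and -1.36 in the high phosphate libraries. It was lower in every high phosphate library, by a mean difference of -1.25. For Mmp14 to Timp2 the log2 ratio was -2.20, -1.58 and -2.34 in the normal and -2.98, -3.24 and -3.10 in the high phosphate libraries, with a difference of -1.06. For Adamts5 to Timp3 it was -0.71, -0.86 and -1.07 in the normal and -1.75, -1.71 and -1.68 in the high phosphate libraries, with a difference of -0.83. The ratio of Mmp9 to Timp1 went the other way, at 0.079, -0.26 and 1.21 in the normal and 1.81, 3.01 and 2.98 in the high phosphate libraries, a difference of 2.26. In none of the 4 pairs did the diets overlap, and the two-sided exact permutation p was 0.1 for each (0.1 after adjustment over the 4), which is the smallest that 3 against 3 libraries can give.

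**Figure D4:**
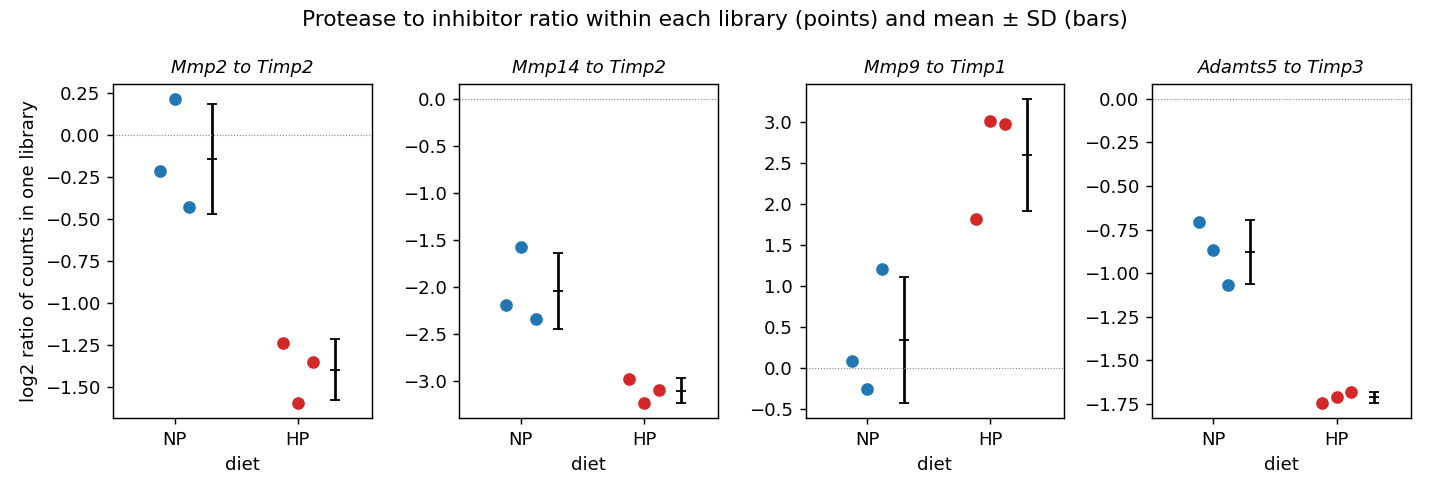
Log2 ratio of the counts of a protease to those of an inhibitor in the same library (points, replicates 1 to 3 from left to right, NP normal and HP high phosphate) with mean ± SD (bars, n = 3 per diet). The HP points lie below the NP points for Mmp2 to Timp2, Mmp14 to Timp2 and Adamts5 to Timp3 and above them for Mmp9 to Timp1.

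Many of these genes are made by fibroblasts, so their counts were also set against the summed counts of the 10 fibroblast markers in the same library. Mmp2 stood at 48.6 to 50.3 in normal and 30.1 to 36.0 in high phosphate libraries per 1000 fibroblast marker counts, so the normal phosphate libraries, replicate 2 included, were nearly equal on this scale. Mmp14 stood at 12.8 to 14.0 in normal and 9.65 to 10.8 in high phosphate libraries, Timp2 at 41.9 to 65.5 in normal and 79.8 to 92.0 in high phosphate libraries and Timp4 at 6.20 to 16.0 in normal and 36.7 to 55.4 in high phosphate libraries. On this scale 10 of the 40 tested members were lower in every high phosphate library than in any normal one, 15 were higher and 15 overlapped. Of all genes tested, 2.25% were lower and 76.6% higher on it, since the marker sum itself fell, so the count of higher members is no result about them. The sum is dominated by Col1a1, Col1a2, Col3a1 and Dcn (79.0% to 88.9% of it). Against the 7 markers that are not collagens, 16 members were lower, 6 were higher and 18 overlapped, beside 8.70% lower and 61.1% higher of all genes. Per 1000 counts of these 7, Mmp2 stood at 91.3, 166 and 86.0 in the normal and 51.6, 37.7 and 50.7 in the high phosphate libraries. Mmp14 stood at 23.1, 47.7 and 22.8 in the normal and 15.5, 12.1 and 15.2 in the high phosphate libraries. For both, normal phosphate replicate 2 stood apart on this second scale. Timp2 overlapped between the diets on it, at 106 to 143 in normal and 114 to 130 in high phosphate libraries. All 346 genes lower against the 10 markers were also lower against the 7, so for them the second denominator was no further check. The 10 members lower under both denominators (2.25% of all genes) were Mmp2, Mmp8, Mmp12, Mmp13, Mmp14, Mmp19, Mmp27, Adamts7, Adamts17 and Timp1. Of these, Mmp8, Mmp12, Mmp13, Mmp27 and Adamts17 passed the filter through the normal phosphate libraries alone. Setting members against fibroblast markers was chosen after their values were seen, and no test was made of these ratios.

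Genes that activate or restrain these proteases were lower more often than higher. Of 20 listed activators and regulators 17 were tested, 10 fell and 2 rose (26.3% and 23.0% of all genes), with a median log2 fold change of -0.53 against -0.016 for all genes. Those with the smallest p were Plat, the tissue plasminogen activator (-1.03 ± 0.15, adjusted p = 0.00105), Lrp1, the endocytic receptor that clears MMPs and TIMPs (-1.16 ± 0.18, adjusted p = 0.00138), the proprotein convertase Pcsk5 (-1.53 ± 0.29, adjusted p = 0.00316), Plaur, the urokinase receptor (-1.04 ± 0.22, adjusted p = 0.00467), and Plau, urokinase (-0.53 ± 0.11, adjusted p = 0.00501). The 2 that rose were Bsg (basigin), an inducer of MMPs (0.71 ± 0.17, adjusted p = 0.00826), and Spock2, a matrix proteoglycan (0.80 ± 0.22, adjusted p = 0.0169), named after their values were seen. Spock2 was not called without normal phosphate replicate 1 (0.69, adjusted p = 0.0566) or 2 (0.84, adjusted p = 0.0568). Furin, which activates Mmp14, was at 62.4 ± 1.19 and 70.4 ± 6.24 CPM, without a call (0.18 ± 0.10, adjusted p = 0.174). Of 20 listed substrates 17 were tested and 16 fell, against 26.3% of all genes, and without normal phosphate replicate 2 it was 15 of 17. Without high phosphate replicate 1, 12 of 18 were lower and 1 higher (21.1% and 17.4% of all genes). Without high phosphate replicate 2 or 3, 13 of 18 were lower (21.6% and 21.2% of all genes). The median of the 17 was -1.51 (-1.18 without normal phosphate replicate 2), and 4 of the 20 are also fibroblast markers. Fibronectin Fn1 (-1.84 ± 0.30, adjusted p = 0.00170), the fibrillin Fbn1 (-1.51 ± 0.25, adjusted p = 0.00195), the proteoglycan Bgn (-1.47 ± 0.25, adjusted p = 0.00213), Col3a1 (-2.75 ± 0.49, adjusted p = 0.00306) and Sparc (-1.69 ± 0.34, adjusted p = 0.00415) had the smallest p. Vwf, the substrate of Adamts13, was the tested substrate that was not called, at 57.9 ± 4.84 and 72.1 ± 13.2 CPM (0.32 ± 0.14, adjusted p = 0.0866), although it was called higher without high phosphate replicate 1 (0.45, adjusted p = 0.0324).

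**Figure D5:**
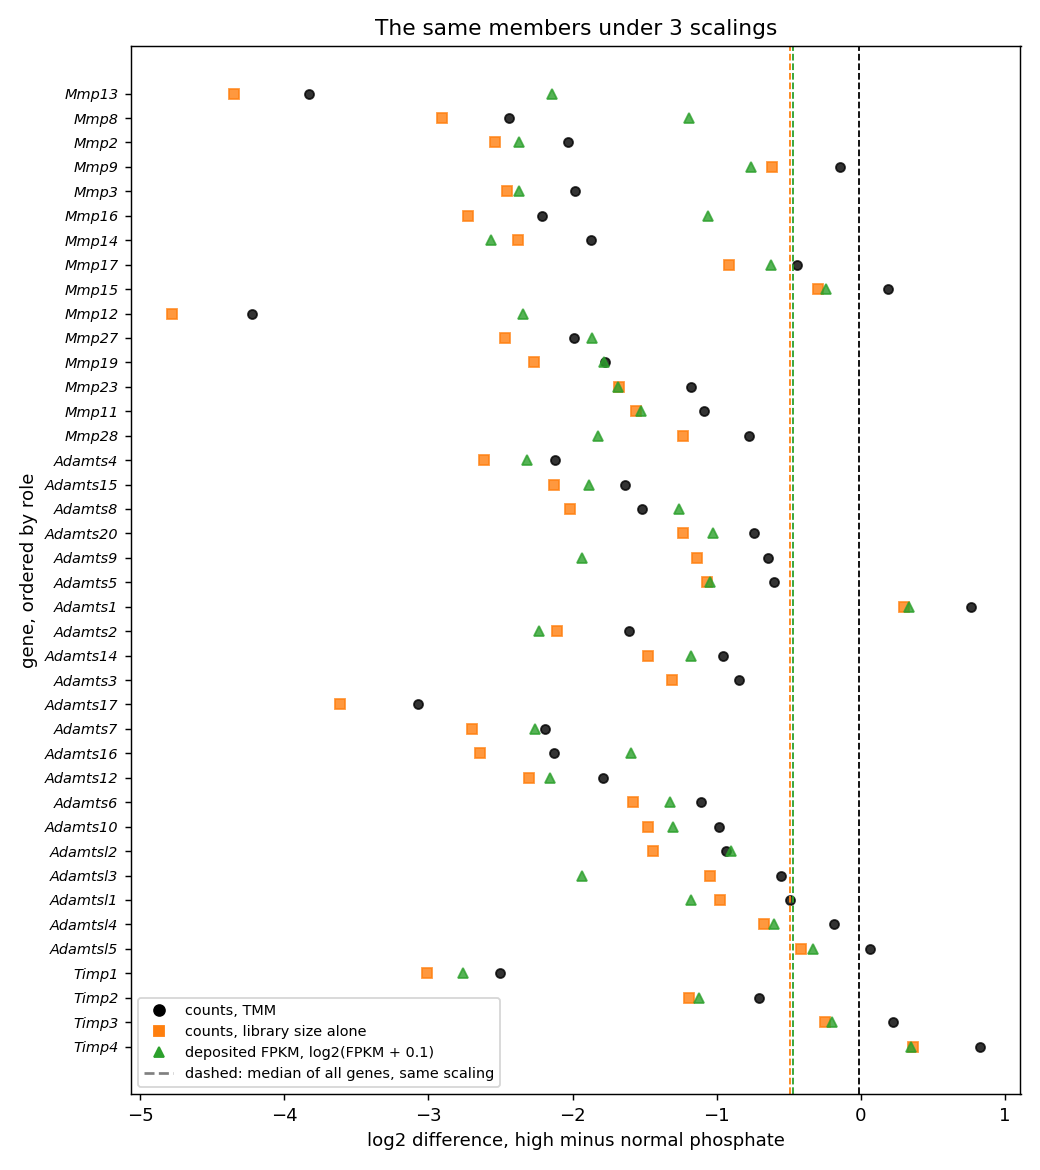
Log2 difference (high minus normal phosphate) of the tested members under 3 scalings: counts with TMM (circles), counts with library size alone (squares) and deposited log2(FPKM + 0.1) (triangles, for the 38 of them in that fit), with dashed lines at the median of all genes under each. Adamts1 and Timp4 stay right of 0 under all 3, whereas Adamtsl5, Mmp15 and Timp3 change sign.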

How the data were processed

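RNA sequencing counts of 3 normal and 3 high phosphate libraries were used. The authors' count table gives unnormalized whole reads for each Ensembl gene. The authors also deposited FPKM values, and the tool behind these is not given in the sources used here. The submitters' processing notes name HISAT2 (version 2.0.1), Trim Galore (version 0.4.1), DESeq2 (version 1.6.3), featureCounts (version 1.4.6) and the GRCm38 build, without their roles. The annotation release and strand setting are likewise not given.

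Libraries were grouped and numbered by their labels. Counts were tested in edgeR 4.0.16 under R 4.3.3 by quasi-likelihood F tests (TMM, filterByExpr, robust estimation, Benjamini-Hochberg adjustment over 15347 genes), which supplies every adjusted p not credited to another tool; the SE is the fold change over the square root of F, an approximation. The fit was tested on simulated data. At 1 CPM of library size the counting error was 19.1% to 21.4%. Alternatives were other scalings and filters, a replicate block, DESeq2 1.42.0, limma-voom and limma 3.58.1 on log2(FPKM + 1) or log2(FPKM + 0.1), and leaving out each library. FPKM fits kept a mean of at least 0.1. Chi-square per degree of freedom between libraries of a diet was 18.1 to 58.0, above the 1 of pure sampling noise. All were counted separately, although these values cannot show whether the libraries came from separate mice. All tested members were named, with library values for the TIMPs, Mmp2, Mmp9, Mmp14, Adamts1, Adamts4, Adamts5 and the 10 called members of smallest p in each direction, and from the activator and substrate lists up to 5 called genes each. Members and lists were chosen with earlier results of these data known. Gene positions, exon overlaps and shared 50-base stretches came from GENCODE M21, and promoter windows from RefSeq (GRCm38.p6). No library was left out.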

Additional observations from a re-analysis of the deposited data

How the results depend on the processing

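Of the 30 members called, 14 kept their direction and call under every alternative in which they were tested: Mmp2, Mmp3, Mmp8, Mmp11, Mmp14, Mmp19, Mmp23, Mmp27, Adamts2, Adamts5, Adamts7, Adamts15, Timp1 and Timp2. Among these, Mmp8 and Mmp27 passed the filter through the normal phosphate libraries alone, and such a gene is likely to be lower. Leaving out a library gave 6152 to 7577 genes called, 19 to 28 members lower and 2 higher each time. Members higher were 0 with library size alone in edgeR and in all 3 limma fits to FPKM, against 2 with DESeq2 and limma-voom on counts, and at an unadjusted p under 0.05 there was 1 with library size alone and 0 in the FPKM fits. The unfiltered FPKM fit called 18 members lower (15.8% of all genes). Signs turned for Adamtsl5 (-0.41 with library size alone, -0.30 on log2(FPKM + 1) with or without the filter, -0.33 on log2(FPKM + 0.1) and -0.018 without high phosphate replicate 2, in a range of -0.018 to 0.16 over the libraries left out), Mmp15 (-0.29, -0.21 and -0.24 in the same order of scalings), Timp3 (-0.25, -0.20 and -0.20) and Mmp9 (0.066 without high phosphate replicate 1, in a range of -0.32 to 0.066), none of them called with TMM. The cause was not tested. The differences in the 4 ratios kept their sign with FPKM and without each library, at -1.40 to -1.07 for Mmp2 to Timp2 in the latter. Libraries with the same number did not deviate together (correlations of -0.021 to 0.022 across genes), and the main fit did not pair them. These correlations cannot show whether libraries of the same number were prepared together. With the replicate number as a block 7328 genes were called, with 29 members lower and 2 higher (25.5% and 22.2% of all genes), and among members Adamts8 lost its call (-1.50) while Adamts9 and Adamtsl3 gained one. Depth limits members under 1 CPM in the high phosphate libraries, such as Mmp8, Mmp16 and Adamts17.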
